A study of Mus musculus with 6 samples.

Results

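Lysosome genes were described here across 6 mouse microarrays of glioma cells driven by 2 different oncogenes. The set holds 42 listed genes, namely the acid hydrolases of the lysosome, its membrane proteins, 5 subunits of the proton pump that acidifies it, the secreted regulator progranulin and the transcription factor TFEB. A gene entered if the platform annotation gave its symbol to a probe set of the array, and its brightest probe set was used. By this rule 40 of the 42 genes were found, with 73 probe sets, among 12393 genes on the array. Arsb and Cd63 were not analysed here. Of the 40 genes, 28 were bright enough to be tested, among 6761 tested genes in all.

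The samples were high-grade gliomas raised by grafting transduced embryonic neural progenitor cells into the brain of adult BALBc mice, which were killed when symptoms of glioma began. A retroviral vector carried the driver together with a fluorescent reporter, named DsRed in the growth and sample labels and EGFP in the sorting protocol, and reporter-positive cells were sorted before RNA was amplified. In the 2 PDGF-B arrays the driver was platelet-derived growth factor B and the progenitors were BALBc. In the 4 EGFRvIII arrays the driver was EGFRvIII, a form of the receptor for epidermal growth factor that lacks part of its outer domain and signals without ligand, and the progenitors were labelled BALBc INK4a -/-. Driver and INK4a genotype thus differed together and cannot be told apart. Titles number the samples as biological replicates without naming animals, so p-values measure the spread between these samples. Some fields describe cultured cells and the sorting protocol describes cells sorted after dissociation.

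Lysosomes are acidic organelles in which proteins, glycans, sphingolipids and sterol esters are broken down. The hydrolases are soluble enzymes that act at low pH, which the vacuolar ATPase maintains by pumping protons across a membrane lined with heavily glycosylated proteins. TFEB and its relatives drive many lysosome genes by binding a promoter sequence, the CLEAR element, that is centred on the E-box core CACGTG. Inherited loss of many of these enzymes causes storage disease, often with damage to neurons and glia.

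Most lysosome genes lay somewhat higher in EGFRvIII cells, and 3 of them passed the test. Tpp1, a peptidase that trims short peptides from protein ends, rose 1.98-fold, Ctsb, the cysteine protease cathepsin B, 1.91-fold, and Psap, the precursor of the saposins that help enzymes reach sphingolipids, 1.89-fold (limma, Benjamini-Hochberg adjusted p = 0.027, 0.0407 and 0.0495). These 3 of 28 tested members were all higher, where 1.64% of all tested genes were called higher and 2.23% were called in either direction. No member was called lower, where 0.592% of all tested genes were, and 0 members were lower at an unadjusted p under 0.05, against 9.32%. Levels are RMA intensities on the log2 scale, summarised as mean ± SD, and differences are log2 fold changes, EGFRvIII minus PDGF-B, with the standard error (SE) of the fit. With 2 arrays in the smaller group, their number limits the precision.

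None of the 3 held without PDGF-B replicate 1, without PDGF-B replicate 2, without EGFRvIII replicate 1 or without EGFRvIII replicate 4. Tpp1 alone held without EGFRvIII replicate 3, and Tpp1 and Ctsb held without EGFRvIII replicate 2. The count over all tested genes, 151 with all arrays, was 1, 10, 15, 23, 96 and 155 without these arrays in the order PDGF-B replicates 1 and 2, then EGFRvIII replicates 1, 4, 3 and 2. The size of the differences moved little when an array was left out, between 0.95 and 1.04 for Tpp1, 0.86 and 0.99 for Ctsb and 0.85 and 1.01 for Psap.

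**Figure D1:**
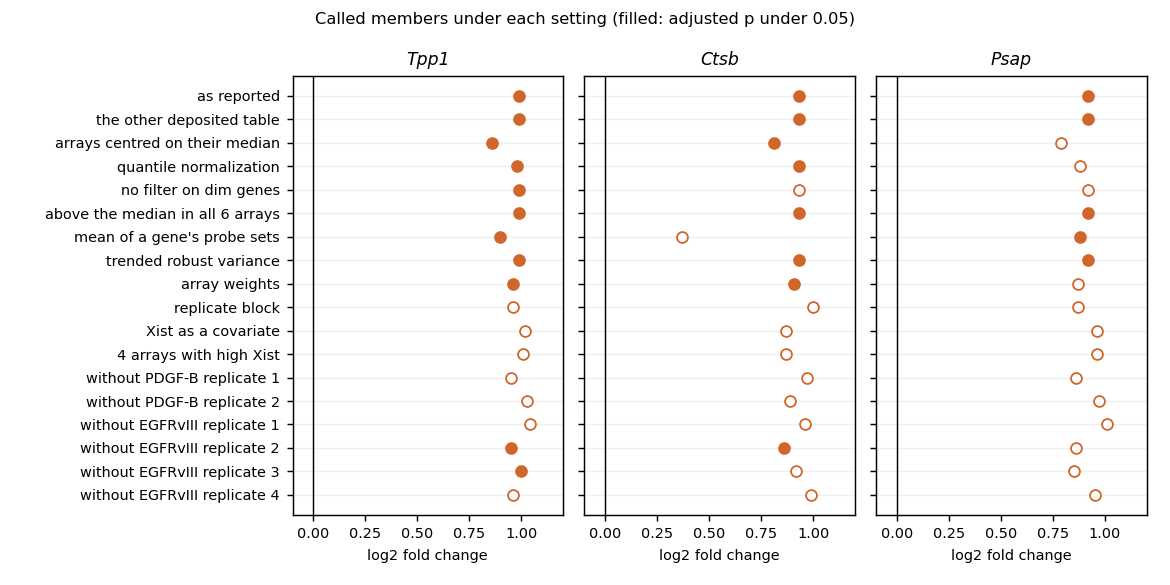
Log2 fold change (EGFRvIII minus PDGF-B) of Tpp1, Ctsb and Psap as reported and under 17 alternative settings. The setting with the other deposited table is a copy of the same values. A filled point has a limma adjusted p under 0.05. Points of each gene lie close together except Ctsb with the mean of its probe sets (0.37), while many are open.

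Beyond the calls, the members leaned one way. A log2 fold change above 0 was found for 24 of the 28 (85.7%), against 56.5% of all tested genes, and the median was 0.34 against 0.06. In 16 members (57.1%) every EGFRvIII array lay above both PDGF-B arrays, which held for 22.5% of all tested genes, and in 0 members did every EGFRvIII array lie below, against 14.9%. An unadjusted p under 0.05 with a higher level in EGFRvIII cells was reached by 15 members (53.6%), against 15.7% of all tested genes. These figures describe a chosen list and are no test of it, since genes of the list can vary together. The list was also chosen with earlier results of these data known. The arrays' medians were higher in EGFRvIII, and centring each array lowered the median of all genes from 0.06 to -0.07 and that of the members from 0.34 to 0.22, with 20 members positive. The gap between members and all genes was 0.28 under both scalings.

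The filter on dim genes asked for a value above the median of all probe sets in at least 2 arrays. Mcoln1 was the 1 tested member that met it through EGFRvIII arrays alone. Over all 40 members with a probe set, dim ones included, 34 had a positive difference (85%) with a median of 0.36, against 49.6% and 0 over all 12393 genes.

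**Figure D2:**
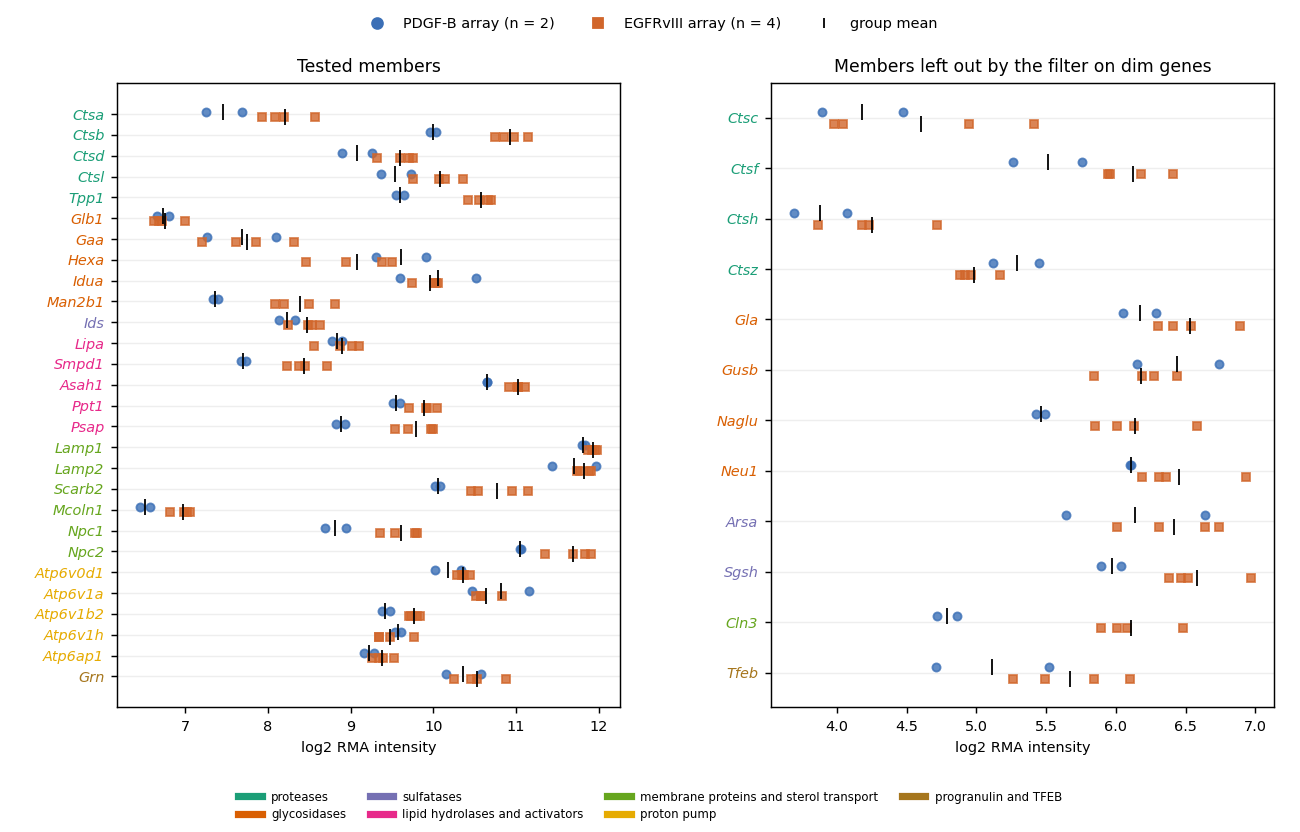
Log2 RMA intensity of every member in every array, 28 tested members on the left and 12 dim members on the right; circles are the 2 PDGF-B arrays, squares the 4 EGFRvIII arrays, black ticks the group means, and label colours the role groups. The groups are apart for Tpp1, Ctsb and Psap, and overlap for most glycosidases and pump subunits.

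Of the 9 proteases 5 were tested, all 5 with a log2 fold change above 0 and a median of 0.73, and 2 were called. Tpp1 stood at 9.55 and 9.64 in PDGF-B replicates 1 and 2 and at 10.42, 10.70, 10.55 and 10.66 in EGFRvIII replicates 1 to 4. The lowest EGFRvIII array lay well above both PDGF-B arrays, and the spread within each group was small (9.59 ± 0.06, n = 2, and 10.58 ± 0.13, n = 4). The log2 fold change was 0.99 (SE 0.13), and the other Tpp1 probe set gave 0.81, also with no overlap of the groups. Ctsb stood at 10.03 and 9.96 in PDGF-B and at 10.85, 11.14, 10.98 and 10.75 in EGFRvIII arrays (10.00 ± 0.05 and 10.93 ± 0.17; log2 fold change 0.93, SE 0.15). Its groups were as clearly apart, but its 3 dimmer probe sets gave only 0.16, 0.15 and 0.25, and the mean over its probe sets gave 0.37, which was not called (adjusted p = 0.14).

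The promoter of Tpp1, the member with the smallest p, is shown because it lacks the E-box core in the 300 bases around the annotated start. It spans chr7:105752186-105752485 on the minus strand of GRCm38.p6 (RefSeq), 250 bases before to 50 after the start, and no capitals appear because no match was found. Only the exact core was searched, so close variants of it may be present in the window.
Tpp1: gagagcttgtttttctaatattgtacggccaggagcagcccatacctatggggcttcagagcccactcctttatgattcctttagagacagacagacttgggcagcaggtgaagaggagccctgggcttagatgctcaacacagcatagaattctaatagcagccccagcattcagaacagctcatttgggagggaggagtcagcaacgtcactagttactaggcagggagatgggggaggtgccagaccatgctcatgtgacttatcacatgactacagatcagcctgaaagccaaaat

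Ctsa, a carboxypeptidase that also shields sialidase and beta-galactosidase from breakdown, was at 7.25 and 7.68 in PDGF-B and at 8.09, 8.57, 8.19 and 7.93 in EGFRvIII arrays. The groups did not overlap, but the PDGF-B arrays differed among themselves (7.46 ± 0.30 and 8.20 ± 0.27), and the log2 fold change of 0.73 (SE 0.22) did not pass (adjusted p = 0.106). Ctsd, the aspartic protease cathepsin D, was at 8.90 and 9.26 in PDGF-B and at 9.60, 9.70, 9.75 and 9.32 in EGFRvIII arrays (9.08 ± 0.26 and 9.59 ± 0.19; log2 fold change 0.51, SE 0.18, adjusted p = 0.141). The groups nearly met, with EGFRvIII replicate 4 just above PDGF-B replicate 2. The Ctsd value was 0.33 without PDGF-B replicate 1 and 0.70 without PDGF-B replicate 2. Ctsl, the cysteine protease cathepsin L, did the same, at 9.36 and 9.73 in PDGF-B and at 10.14, 10.36, 10.07 and 9.75 in EGFRvIII arrays (9.54 ± 0.26 and 10.08 ± 0.25; log2 fold change 0.54, SE 0.20, adjusted p = 0.165). The Ctsl value was 0.35 without PDGF-B replicate 1 and 0.72 without PDGF-B replicate 2. The remaining cathepsins were dim and not tested. Ctsf had group means of 5.51 and 6.12 without overlap, while Ctsc (4.18 and 4.60), Ctsh (3.88 and 4.25) and Ctsz (5.29 and 4.98) overlapped between groups. Ctsz was the only protease with a lower mean in EGFRvIII cells, and its dimmer probe sets gave -0.35 and 0.15.

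Among the lipid hydrolases and their activators all 5 members were tested, all 5 lay above 0, and Psap was called. Psap stood at 8.82 and 8.93 in PDGF-B and at 9.53, 9.97, 9.99 and 9.69 in EGFRvIII arrays (8.88 ± 0.08 and 9.79 ± 0.22; log2 fold change 0.92, SE 0.17). Every EGFRvIII array was above both PDGF-B arrays, and the other Psap probe set gave 0.85. The call sat at the edge of the threshold and ended in 13 of 17 other settings, with adjusted p between 0.0328 and 0.204 over all of them. Psap has 2 promoters in the RefSeq table. The upstream one, chr10:60277378-60277677 on the plus strand of GRCm38.p6, is shown because Psap too was called and, like Tpp1, has no CACGTG in either window.
Psap: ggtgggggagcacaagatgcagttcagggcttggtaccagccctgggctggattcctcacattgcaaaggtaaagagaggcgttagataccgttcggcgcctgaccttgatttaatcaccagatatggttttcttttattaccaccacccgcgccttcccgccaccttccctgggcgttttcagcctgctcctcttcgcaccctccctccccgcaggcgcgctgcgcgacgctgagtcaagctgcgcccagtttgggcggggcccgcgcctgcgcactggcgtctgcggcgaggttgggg

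Smpd1, acid sphingomyelinase, was at 7.73 and 7.67 in PDGF-B and at 8.23, 8.45, 8.71 and 8.38 in EGFRvIII arrays (7.70 ± 0.04 and 8.44 ± 0.20). Its groups were apart, and its log2 fold change of 0.74 (SE 0.16) missed the threshold (adjusted p = 0.061). Asah1, acid ceramidase, which acts on the product of Smpd1, was at 10.65 in both PDGF-B arrays and at 10.91, 11.02, 11.02 and 11.11 in EGFRvIII arrays (10.65 ± 0.001 and 11.02 ± 0.08; log2 fold change 0.37, SE 0.12, adjusted p = 0.125). Ppt1, a thioesterase that strips fatty acids from proteins, was at 9.51 and 9.60 in PDGF-B and at 9.91, 9.92, 9.71 and 10.04 in EGFRvIII arrays (9.55 ± 0.06 and 9.89 ± 0.14; log2 fold change 0.34, SE 0.13, adjusted p = 0.183). Both were separated between groups by a small margin, and the other Ppt1 probe set gave 0.30. Lipa, the acid lipase of sterol esters, overlapped between groups (8.83 ± 0.09 and 8.89 ± 0.24; log2 fold change 0.05), although a dimmer probe set of it gave 0.56.

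The glycosidases had no common direction. Of 9 members 5 were tested, 3 above and 2 below 0, the median being 0.02, and none was called (1 at an unadjusted p under 0.05). Man2b1, the lysosomal alpha-mannosidase that trims N-glycans, had the largest log2 fold change among all tested members. It stood at 7.34 and 7.39 in PDGF-B and at 8.19, 8.81, 8.09 and 8.49 in EGFRvIII arrays (7.36 ± 0.04 and 8.39 ± 0.32). Its groups were far apart relative to the PDGF-B spread, and the log2 fold change of 1.03 (SE 0.22) missed the threshold (adjusted p = 0.0588); the dim second probe set gave 0.56. Man2b1 was the 1 tested member (3.57%) at least 2-fold higher, against 4.63% of all tested genes.

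Idua, which removes iduronic acid from heparan and dermatan sulphate, was at 9.60 and 10.51 in PDGF-B and at 10.03, 10.05, 9.74 and 10.01 in EGFRvIII arrays. The PDGF-B arrays lay on either side of all EGFRvIII arrays (10.06 ± 0.64 and 9.96 ± 0.15; log2 fold change -0.10, SE 0.25, adjusted p = 0.833), and the dim second probe set gave -0.13. Hexa, the alpha subunit of the hexosaminidase of gangliosides, had the lowest log2 fold change among tested members, -0.54 (SE 0.32, adjusted p = 0.342), with overlapping groups (9.61 ± 0.43 and 9.07 ± 0.47). The Hexa value was -0.24 without PDGF-B replicate 1 and -0.84 without PDGF-B replicate 2. Glb1, beta-galactosidase, and Gaa, the glucosidase of glycogen, had differences of 0.02 (95% interval -0.33 to 0.37) and 0.06 (-0.77 to 0.89). The intervals do not show that these levels were alike. Among the dim glycosidases, Naglu (5.46 and 6.14), Neu1 (6.11 and 6.45) and Gla (6.17 and 6.53) had every EGFRvIII array above both PDGF-B arrays. For Neu1 and Gla the gap was small, the lowest EGFRvIII values being 6.19 and 6.30 and the highest PDGF-B values 6.11 and 6.29. The share of all dim genes that were so separated was not computed. Gusb (6.44 and 6.18) overlapped. Their dimmer probe sets did not all go the same way, with 0.43 and -0.68 for Neu1, 0.05 for Gla and 0.39 for Gusb.

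Of the sulfatases, Ids, which desulphates iduronic acid, was the 1 tested. It was at 8.32 and 8.13 in PDGF-B and at 8.48, 8.53, 8.24 and 8.63 in EGFRvIII arrays (8.23 ± 0.13 and 8.47 ± 0.17). The groups overlapped through EGFRvIII replicate 3, and the log2 fold change was 0.25 (SE 0.15, adjusted p = 0.345). It was 0.15 without PDGF-B replicate 2 and 0.34 without PDGF-B replicate 1, still for Ids. Its 4 other probe sets gave 0.82, 0.35, 0.51 and, for a dim one, 0.11. Sgsh, the sulfamidase of heparan sulphate, was dim but separated (5.97 and 6.58), while its second probe set gave -0.1. Arsa, which desulphates sulfatides of myelin, was dim and overlapped (6.14 and 6.42).

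Of the 8 membrane and sterol transport proteins 6 were tested, all 6 with a log2 fold change above 0, and limma called none (4 at an unadjusted p under 0.05). The Lamp proteins had the lowest log2 fold changes of the 6. Lamp1, a main structural glycoprotein of the membrane, was at 11.83 and 11.80 in PDGF-B and at 11.95, 11.92, 11.87 and 11.98 in EGFRvIII arrays (11.81 ± 0.02 and 11.93 ± 0.05). The groups did not overlap but the gap was small, and the log2 fold change of 0.12 (SE 0.11, 95% interval -0.15 to 0.38, adjusted p = 0.532) became -0.005 after centring. Its relative Lamp2 had 0.13 (95% interval -0.28 to 0.54) with overlapping groups.

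Npc1 and Npc2, the membrane and the luminal protein that together export cholesterol, both lay higher in every EGFRvIII array. Npc1 was at 8.94 and 8.69 in PDGF-B and at 9.53, 9.78, 9.35 and 9.80 in EGFRvIII arrays (8.81 ± 0.18 and 9.61 ± 0.21; log2 fold change 0.80, SE 0.17, adjusted p = 0.061). Npc2 was at 11.05 and 11.06 in PDGF-B and at 11.83, 11.91, 11.69 and 11.35 in EGFRvIII arrays (11.05 ± 0.003 and 11.69 ± 0.25; log2 fold change 0.64, SE 0.18, adjusted p = 0.0951), and its second probe set gave 0.42. Neither passed. Scarb2, which carries glucocerebrosidase to the lysosome, was at 10.08 and 10.02 in PDGF-B and at 10.95, 11.14, 10.54 and 10.45 in EGFRvIII arrays. EGFRvIII replicates 1 and 2 were the higher pair (10.05 ± 0.04 and 10.77 ± 0.33; log2 fold change 0.72, SE 0.22, adjusted p = 0.112), and its second probe set gave 0.85. Mcoln1, a cation channel that lets calcium out of lysosomes, was at 6.45 and 6.57 in PDGF-B and at 6.81, 7.02, 7.06 and 6.98 in EGFRvIII arrays (6.51 ± 0.08 and 6.97 ± 0.11; log2 fold change 0.46, SE 0.13, adjusted p = 0.0964), with 0.28 for its second probe set. Its values sat close to the arrays' medians, so it was barely bright enough to be tested.

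Cln3, a membrane protein that is mutated in juvenile Batten disease, had the largest difference of all 40 members but was too dim for the filter. It was at 4.72 and 4.86 in PDGF-B and at 6.08, 6.48, 6.01 and 5.89 in EGFRvIII arrays, a difference of 1.32 with no overlap (4.79 ± 0.10 and 6.11 ± 0.25). Without the filter on dim genes limma called Cln3 and Tpp1 (adjusted p = 0.0398 and 0.036), while Ctsb and Psap were not called (adjusted p = 0.0502 and 0.0654), and 0.621% of all 12393 genes were called. Lamp1 and Cln3 both carry the E-box core in a promoter, with 4 and 2 matches, and are shown as carriers with the smallest difference among members whose groups are apart and with the largest of all. CACGTG is in capitals; the Lamp1 window is chr8:13158911-13159210 (plus strand) and the Cln3 window chr7:126583187-126583486 (minus strand), GRCm38.p6. A further Cln3 promoter in the table has no match.
Lamp1: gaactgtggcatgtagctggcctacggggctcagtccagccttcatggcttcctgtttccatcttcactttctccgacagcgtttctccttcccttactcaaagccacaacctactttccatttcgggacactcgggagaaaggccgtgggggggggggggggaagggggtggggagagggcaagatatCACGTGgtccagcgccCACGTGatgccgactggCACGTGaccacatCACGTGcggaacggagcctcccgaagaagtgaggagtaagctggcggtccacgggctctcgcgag
Cln3: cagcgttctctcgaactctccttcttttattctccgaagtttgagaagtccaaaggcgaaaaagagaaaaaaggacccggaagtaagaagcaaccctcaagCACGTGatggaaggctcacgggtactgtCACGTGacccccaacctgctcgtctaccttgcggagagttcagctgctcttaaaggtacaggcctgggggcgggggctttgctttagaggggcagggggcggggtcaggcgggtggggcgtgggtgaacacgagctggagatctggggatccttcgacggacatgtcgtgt

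**Figure D3:**
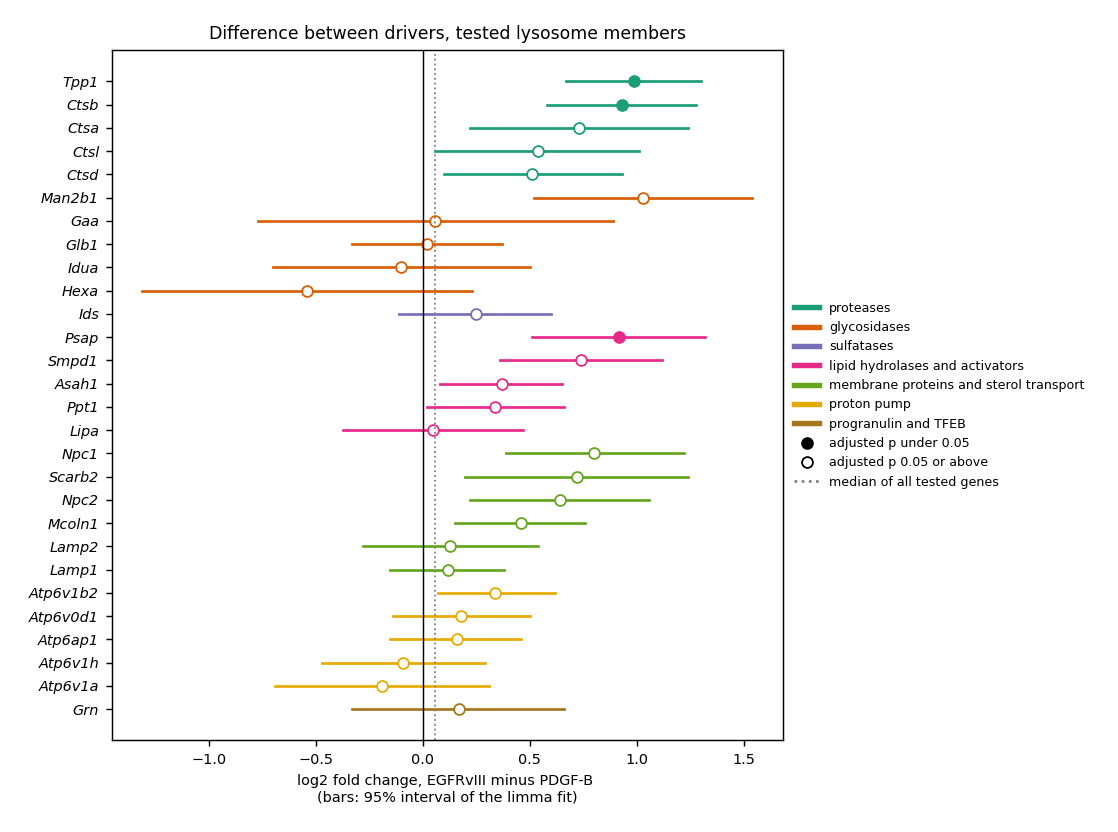
Log2 fold change (EGFRvIII minus PDGF-B, points) and its 95% interval in the limma fit (bars) for the 28 tested members, grouped by role; filled points have an adjusted p under 0.05 and the dotted line is the median of all tested genes, 0.06. The filled points are Tpp1, Ctsb and Psap, and the intervals of 4 of 5 pump subunits cross 0.

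All 5 proton pump subunits were tested, 3 with a log2 fold change above and 2 below 0, from -0.19 to 0.34, and limma called none (1 at an unadjusted p under 0.05). Atp6v1a, the catalytic subunit, was at 10.47 and 11.16 in PDGF-B and at 10.52, 10.83, 10.57 and 10.58 in EGFRvIII arrays (10.82 ± 0.49 and 10.63 ± 0.14). The PDGF-B arrays enclosed all EGFRvIII arrays. The log2 fold change of -0.19 (SE 0.21, adjusted p = 0.601) was 0.16 without PDGF-B replicate 2 and -0.54 without PDGF-B replicate 1. The second Atp6v1a probe set gave 0.09. Atp6v1b2, a subunit that binds ATP beside it, was at 9.47 and 9.38 in PDGF-B and at 9.70, 9.80, 9.84 and 9.73 in EGFRvIII arrays (9.42 ± 0.07 and 9.77 ± 0.07; log2 fold change 0.34, SE 0.12, adjusted p = 0.139). The groups were apart, but its dimmer probe sets went the other way, at -0.18 and -0.30. Atp6v1h, a regulatory subunit, had -0.09 (95% interval -0.47 to 0.29), Atp6v0d1, of the membrane sector, 0.18 (-0.14 to 0.50) and Atp6ap1, an accessory subunit, 0.16 (-0.15 to 0.46). Whether the pump differs from the hydrolases was not tested.

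Grn, the precursor of the granulins and a regulator of lysosome function, was at 10.15 and 10.57 in PDGF-B and at 10.25, 10.88, 10.53 and 10.46 in EGFRvIII arrays. The groups overlapped (10.36 ± 0.29 and 10.53 ± 0.26; log2 fold change 0.17, SE 0.21, adjusted p = 0.65), and the other Grn probe sets disagreed, at 0.55 and -0.11. Tfeb itself was dim and not tested, at 4.71 and 5.52 in PDGF-B and 5.84, 6.10, 5.49 and 5.26 in EGFRvIII arrays, with overlapping groups.

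The E-box core was common in the members' promoters. Many lysosome genes are known to carry the CLEAR element, as described above, so a raised share here is no independent finding. The promoters counted include those of members that were not tested. The RefSeq table (GRCm38.p6) held promoters for 36 of the 42 members, 41 in all. CACGTG, which reads the same on both strands, occurred in 15 of these 41 promoters (36.6%), against 7.15% of all 32851 promoters and 10.2% of the 7239 promoters of tested genes. The longer palindrome TCACGTGA, which contains it, occurred in 7 (17.1%), against 0.974% and 1.95%. The 15 promoters belonged to 15 genes, 9 of them tested, with a median log2 fold change of 0.18 (from -0.19 to 0.73) and 0 called by limma (4 at an unadjusted p under 0.05). The 14 tested members with promoters but no match had a median of 0.30 (from -0.54 to 1.03) and 2 called. Of these, Tpp1, Psap, Man2b1, Smpd1, Npc2, Scarb2 and Ppt1 had a limma unadjusted p under 0.05. The 5 tested members with no promoter in the RefSeq table had a median of 0.37 and 1 called, Ctsb. Over all tested genes 2.23% were called and 25% had an unadjusted p under 0.05. Whether these sets differ was not tested. A match describes letters in this window only and is neither a binding site nor a cause. The lack of a match does not show that a CLEAR element is absent, since variants of the core were not searched. Carriers Ctsl, Arsa, Gaa, Atp6v1a and Ctsf and the other sites of Ctsa, Ctsd, Gla and Mcoln1 are not shown. Letters beside the core vary among them, so the sites below are examples and do not stand for all. They come from 8 further carriers, 1 each, with flanking bases and the core in capitals, read 5′ to 3′ on the gene's strand.
Ctsa: cagatgctCACGTGaccagagc
Ctsd: ccgcgtctCACGTGacccgttg
Gla: atctcggtCACGTGagcaactc
Glb1: ttctgagtCACGTGgcctacag
Naglu: cttcaggtCACGTGgcccgagg
Sgsh: ctgccgtgCACGTGaccgtggg
Mcoln1: gccccgctCACGTGaccgcggc
Atp6v0d1: actgcggtCACGTGagacgcgg

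**Figure D4:**
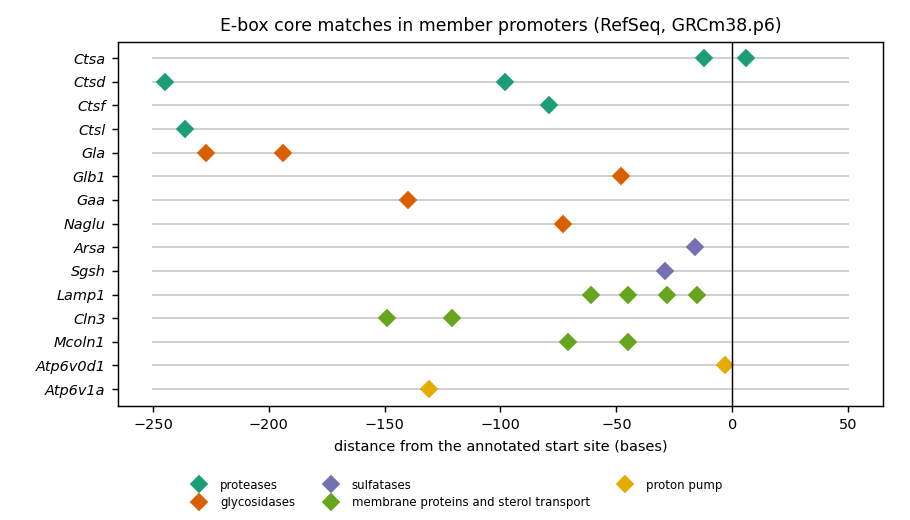
Distance in bases from the annotated start site to the first base of each CACGTG match (diamonds) in the 15 members with a match; grey lines span the window searched, 250 bases before to 50 after the start, and colours mark role groups. Lamp1 has 4 matches, all within 61 bases before its start.

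Within the EGFRvIII group the members differed between arrays. EGFRvIII replicate 2 was the highest of the 4 EGFRvIII arrays in 14 of the 28 tested members, while it was highest in 28.8% of all tested genes, and it was the lowest in 0 members, against 26.6%. EGFRvIII replicate 1 was the lowest in 13 members, against 20.2% of all tested genes. The median difference of the members from their PDGF-B mean was 0.27, 0.44, 0.32 and 0.27 in EGFRvIII replicates 1 to 4, against 0.07, 0.06, 0.08 and 0.01 for all tested genes. All 4 EGFRvIII arrays thus lay above the PDGF-B mean, with replicate 2 the highest. The SD of a member among the EGFRvIII arrays was 0.18 in the median, close to 0.19 for all tested genes.

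**Figure D5:**
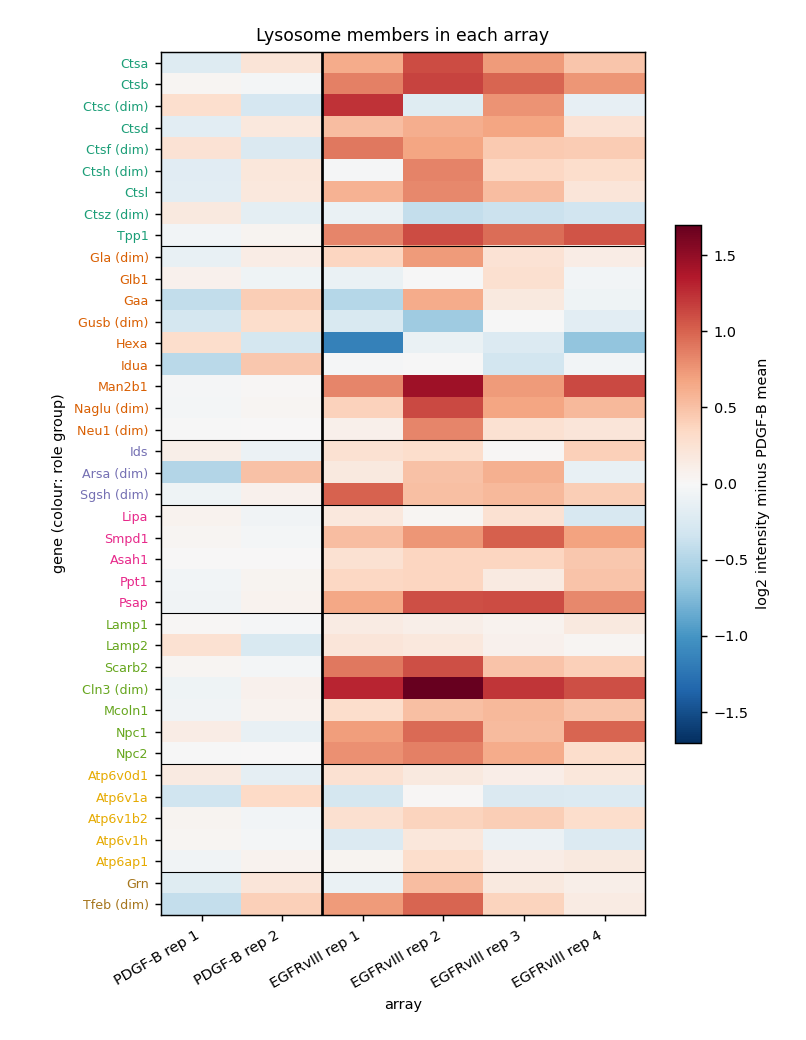
Log2 intensity of each of the 40 members minus its mean in the 2 PDGF-B arrays (colour scale), one column for each array, with rows ordered by role; dim members were not tested. Red predominates in the EGFRvIII columns, is strongest for Cln3 and EGFRvIII replicate 2, and is weak in the rows of the pump subunits and Lamp proteins.

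Markers of other cells were read beside these results, since macrophages and microglia are rich in lysosomes. None of 18 microglia and macrophage markers was bright enough to be tested, and their mean level was 4.38 in both PDGF-B arrays and 4.13 to 4.34 in EGFRvIII arrays, all below the PDGF-B value. The highest single value among them was 6.51, for Cd68, itself a lysosomal protein, in EGFRvIII replicate 2, and MHC class II markers were at 4.71 in both PDGF-B and 4.39 to 5.35 in EGFRvIII arrays, highest in the same array. Ptprc, which marks leukocytes, lay between 2.89 and 3.12 in all arrays. The list means of astrocyte and mature oligodendrocyte markers were higher in every EGFRvIII array than in PDGF-B arrays. Of the astrocyte markers, Slc1a2, Slc1a3, Aldoc and Gja1 overlapped between groups, while Gfap and Aqp4, too dim to be tested, did not. The mean of 6 astrocyte markers was 6.48 and 6.49 in PDGF-B and 6.62 to 9.29 in EGFRvIII arrays, and that of 4 mature oligodendrocyte markers was 4.45 and 4.49 in PDGF-B and 5.22 to 7.03 in EGFRvIII arrays; of the 4 tested genes in both lists none was called. EGFRvIII replicate 2, in which 14 lysosome members were highest, had the highest mean of mature oligodendrocyte markers (Mbp at 11.92). That mean rested on Mbp and Mag, which differed by 3.33 and 2.59, while Mog (0.07) and Mobp (-0.13) overlapped between groups. Their part in the lysosome differences was not tested. The 5 oligodendrocyte progenitor markers were above the median of all probe sets in every array (list mean 11.56 to 12.14), and none was called. Of these, Pdgfra, the receptor that PDGF-B activates, was lower in every EGFRvIII array (13.13 and 13.08 against 11.76 to 12.94; log2 fold change -0.86, limma unadjusted p = 0.0264, adjusted p = 0.151). Olig1, Olig2, Sox10 and Cspg4 overlapped between groups (log2 fold changes 0.05, 0.08, 0.29 and -0.07). Over all tested genes 14.9% lay lower without overlap, and 9.32% were lower at a limma unadjusted p under 0.05. Neuron markers had a list mean of 5.10 to 5.89 in PDGF-B and 4.61 to 5.02 in EGFRvIII arrays, lower in every EGFRvIII array. Each single neuron marker overlapped between groups. The 1 tested, Snap25, was at 7.90 and 5.76 in PDGF-B replicates 1 and 2 and was not called. In bulk RNA, a change in the share of cells of a type and a change in RNA per cell cannot be told apart. No marker of endothelial cells, pericytes and fibroblasts or T and NK cells was bright enough to be tested.

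Xist, the RNA of the inactive X chromosome, was at 3.85 and 4.46 in EGFRvIII replicates 1 and 2 and between 11.71 and 12.38 in the other arrays. In the 4 arrays with high Xist, Tpp1, Ctsb and Psap differed by 1.01, 0.87 and 0.96, against 0.99, 0.93 and 0.92 with all arrays, but none passed (adjusted p = 0.0976, 0.136 and 0.127). Scarb2 differed by 0.44 there and with Xist in the model, against 0.72 with all arrays, and Ctsl by 0.36 with Xist in the model, against 0.54. The X-linked members Ids, Lamp2 and Atp6ap1 differed by 0.25, 0.13 and 0.16, and Gla was dim.

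Further genes of the lysosome and autophagy pathways were read from lists of 145 genes. Of the 81 tested, 3 were called higher and 0 lower by limma (13 higher and 4 lower at an unadjusted p under 0.05), 57 lay above 0 and the median was 0.16. Over all tested genes 1.64% were called higher, 15.7% were higher and 9.32% lower at an unadjusted p under 0.05, and 56.5% lay above 0, so the 13 genes were near the background share. The log2 fold changes ran from -1.28 to 1.02, the lowest for Litaf, which was lower in every EGFRvIII array (limma adjusted p = 0.113). The 3 genes called were Lgmn, Laptm4a and Vps41. Lgmn, a protease that cuts after asparagine and processes cathepsins, was at 5.88 in both PDGF-B arrays and at 6.96, 7.19, 6.80 and 6.65 in EGFRvIII arrays, a 2.03-fold rise (adjusted p = 0.0408), and it passed the filter on dim genes through EGFRvIII arrays alone. Laptm4a, a lysosomal membrane protein, rose 1.67-fold from 10.59 ± 0.004 to 11.33 ± 0.14 (adjusted p = 0.048). Vps41, a part of the HOPS complex that fuses late endosomes with lysosomes, rose 1.71-fold from 8.85 ± 0.12 to 9.62 ± 0.13 (adjusted p = 0.0465). All 3 had non-overlapping groups. No call of the 3 held without PDGF-B replicate 1 or 2 or without EGFRvIII replicate 1, 3 or 4, and Lgmn alone held without EGFRvIII replicate 2.

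In the other lists none of the tested genes was called by limma. Of the 5 other glycosidases and sulfatases tested (1 higher at an unadjusted p under 0.05), Galc, the enzyme of galactosylceramide, had 0.80 (adjusted p = 0.106) and Sumf1, which activates sulfatases, -0.22 (adjusted p = 0.485). Of 4 other lipid hydrolases and phosphatases (1 lower at an unadjusted p under 0.05), Pld3 had -0.53 and Acp2 0.27 (adjusted p = 0.176 and 0.275). The 12 further pump subunits ranged from -0.50 to 0.72 with a median of 0.18 (2 higher and 1 lower at an unadjusted p under 0.05). Atp6v1g1 had -0.50 (adjusted p = 0.0824) and Atp6v1f 0.54 (adjusted p = 0.135), each without overlap but in opposite directions. Among the 9 genes of sorting to lysosomes (1 higher at an unadjusted p under 0.05), Gnptab, which makes the mannose phosphate tag, had 0.75 (adjusted p = 0.0596) and Vps26a 0.24 (adjusted p = 0.427). Among the 13 tested MiT/TFE and mTORC1 genes (0 at an unadjusted p under 0.05), Mitf, a relative of TFEB, had 0.95 (adjusted p = 0.288) with EGFRvIII arrays from 6.25 to 8.15, and Rheb, the activator of mTORC1, -0.35 (adjusted p = 0.203).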

How the data were processed

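RNA of reporter-sorted glioma cells was amplified, biotin labelled and hybridized, 1 array for each of 6 samples. The deposited values are log2 intensities of probe sets, made by the authors with RMA, which includes quantile normalization between arrays, and affy 3.4.2, per the submitters' processing notes; the log base was read from their range, 2.22 to 14.4. Of 22690 probe sets, 64 were controls and 20380 had 1 gene symbol. For each gene the probe set with the highest mean was used, and genes exceeding each array's overall median in at least 2 arrays were tested.

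One linear model for all 6761 tested genes set 4 EGFRvIII against 2 PDGF-B arrays, using limma 3.58.1 with a two-sided moderated test in R 4.3.3, without further normalization or covariates, with 4 residual and 2.81 prior degrees of freedom. A call needed an adjusted p (Benjamini-Hochberg) under 0.05. The members and lists were chosen with earlier results of these data known. Members given in full are those called, those with non-overlapping groups and an unadjusted p under 0.05, and in each role the brightest and the one with the largest difference, 20 in all; Cln3, Hexa, Glb1, Gaa, Lipa, Lamp2 and other further members were added after their values were seen. Of the other lists, called genes or the 2 smallest p were named, and Litaf was added after its value was seen. Promoters are from RefSeq. Figures were drawn with matplotlib 3.10.9.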

Additional observations from a re-analysis of the deposited data

Results flagged for a closer look

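Of 41 values examined in the 4 EGFRvIII arrays (the 40 members and the median of the tested ones), 1 showed a single array standing apart by Dixon's criterion, which chance meets in about 1 of 20 groups. The Idua level in EGFRvIII replicate 3, 9.74, lay below the range of the remaining EGFRvIII arrays, 10.01 to 10.05, a gap smaller than that between the PDGF-B arrays, 9.60 and 10.51.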

How the results depend on the processing

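Refits were made under 17 alternatives, limma throughout. The fit on a second deposited copy of the values could not differ, since the copies matched to within 5e-09. These refits and 3 other thresholds bore on the count of members called, 3 as reported. It was 6 with genes above the median in all 6 arrays (4.65% of all genes tested), 5 with a trended robust variance (3.76%), 8 at an adjusted p under 0.1 (10.4%), 15 at an unadjusted p under 0.05 (25%) and 0 when a 2-fold change was also asked (1.55%), against 2.23% as reported. It was 0 with the replicate number as a block (replicate block; 11 members at an unadjusted p under 0.05), 0 with Xist in the model (11) and 0 with only the 4 arrays of high Xist (9), and ran from 0 to 2 with single arrays left out (10 to 14 at an unadjusted p under 0.05). Of all tested genes, 0.133% were called with the block, 0.0444% with Xist in the model and 0.237% with the arrays of high Xist. In the same order, 1647, 1091 and 1099 of 6761 genes had a limma unadjusted p under 0.05, with 1, 3 and 2 residual degrees of freedom. With a PDGF-B array left out the lone sample is assumed to vary like the others. The numbers are not known to pair samples: deviations of same-numbered arrays correlated at 0.20 and 0.25 over genes, with only 2 pairs. PDGF-B replicate 1 and EGFRvIII replicate 4, numbered differently, correlated at 0.18. With 2 PDGF-B arrays, the deviations of each mirror those of the other, so these values are not independent. The median of the members stayed between 0.31 and 0.38 except after centring (0.22); with single arrays left out it ran from 0.31 to 0.38, and 22 to 24 members were positive. The count of other pathway genes called, 3 as reported, was 1 after centring, 0 without a filter on dim genes, 0 with the block, 0 with Xist in the model, 0 with the arrays of high Xist and 0 to 1 with single arrays left out; these refits were chosen after seeing the data. Signs turned under at least 1 setting for 9 of the 28 members, none of them called: Gaa, Glb1, Lipa and Lamp2, all with values from 0.02 to 0.13 as reported, and 5 others. With single arrays left out Idua ran from -0.55 to 0.35, Atp6v1a from -0.54 to 0.16 and Grn from -0.04 to 0.37, and signs also turned for Lamp1 (-0.005) after centring and Atp6v1b2 (-0.04) with the mean of its probe sets. These refits give the settings under which a value moved, and the causes were not tested. Signal over background limits the 12 dim members, which were tested only without the filter, where Cln3 alone of them was called.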

Other observations

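Probe sets of one member did not always move together. Lamp2, for which alternative splicing of the membrane anchor is known, had 4 probe sets. The 3 dimmer ones differed by 0, 0.77 and 0.34 between drivers, against 0.13 for the brightest. The probe set with 0.77 was at 8.10 and 7.93 in PDGF-B and at 9.07, 9.13, 8.58 and 8.36 in EGFRvIII arrays, with no overlap. The transcripts that each probe set detects were not analysed here. For Lipa, 3 probe sets differed by 0.05, 0.56 and 0.16, and for Gaa, 2 probe sets by 0.06 and -0.37.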
